A study of Rattus norvegicus with 7 samples.

Results

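The miR-34 and miR-449a strands were the rat miRNAs rno-miR-34a, rno-miR-34b, rno-miR-34c and rno-miR-449a of the array, with the guide strand and the passenger strand (marked with an asterisk) of each. They were chosen by name, and 8 of the 677 rat miRNAs on the array met the rule, of which 4 were guide strands and 4 were passenger strands. The RNA came from pancreatic islets of male Wistar rats that had been freed from the pancreas by collagenase digestion. The samples were 4 from 12-month-old rats (replicates 2, 4, 10 and 16) and 3 from 3-month-old rats (replicates 9, 11 and 13), each on 1 single-colour Agilent miRNA array. The labels name no transgene and no treatment for either age. The labels number 1 sample per array and do not say whether animals had been pooled, so each sample was taken as 1 rat. The p values measure the spread between these samples.

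MiRNAs are short RNAs that guide a silencing complex to mRNAs, and bases 2 to 8 from the 5′ end, the seed, carry most of the pairing with a target. The miR-34 genes are known as direct transcriptional targets of p53, and miR-34a has been tied to cell cycle arrest, senescence and apoptosis. MiR-34b and miR-34c are cut from 1 shared primary transcript, and the miR-449 miRNAs are best known from multiciliated epithelia. The comparison of the ages asks whether miRNAs of this family are at another level in islets of older rats.

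The mature sequences show which strands form 1 seed family, which is the reason to read these miRNAs side by side. They come from RefSeq on build GRCr8, are written 5′ to 3′, and have the seed in capitals.
miR-34a: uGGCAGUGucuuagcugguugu
miR-34b: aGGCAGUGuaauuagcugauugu
miR-34c: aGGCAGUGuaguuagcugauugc
miR-449a: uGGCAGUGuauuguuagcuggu
miR-449c-5p: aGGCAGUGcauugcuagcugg
miR-34a*: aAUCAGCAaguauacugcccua
The seed GGCAGUG was shared by the 4 guide strands and by miR-449c-5p, which is on the array but not among the named members. Among 693 mature rat miRNAs in RefSeq, 5 carried it, and these are the same 5. The passenger strand miR-34a* is shown because its signals differed between the ages, and it has another seed.

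In GRCr8, miR-34a lies at chr5:165815971-165815992 on the plus strand. MiR-34b lies at chr8:60306657-60306679 and miR-34c at chr8:60306133-60306155, both on the minus strand. Their hairpins are 441 bases apart with no other annotated gene between them, and that of miR-34c lies inside Hoatz. MiR-449a lies at chr2:46403925-46403946 on the plus strand, 1436 bases from the hairpin of miR-449c. MiR-34b and miR-34c are identical at 21 of 23 positions, and the differences, counted from the 5′ end of miR-34b, are A11G and U23C. MiR-34a is identical to miR-34b at 11 of 22 positions and to miR-449a at 15 of 22. How far the probes of one member also read the RNA of another was not tested.

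The arrays of the older rats were brighter as a whole, and this touches every value of the family. The total gene signal is in the scanner's linear units, and its 75th percentile over all rat miRNAs was 67.0 to 73.8 on the 12-month arrays and 37.4 to 55.4 on the 3-month arrays. The software called 278 to 296 miRNAs detected on the 12-month arrays and 246 to 272 on the 3-month arrays, and no spot was saturated. The array of 3-month replicate 13 had the lowest percentile and the fewest detected miRNAs. The islet miRNAs miR-375 and miR-7a, both abundant in beta cells, were detected on all 7 arrays and ranked 3 to 9 and 1 to 2 by signal among the 677 miRNAs.

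Of the guide strands, miR-34a was detected on 7 of 7 arrays. MiR-34b was detected on 4 of 4 arrays of 12-month-old rats and on 1 of 3 arrays of 3-month-old rats, that of replicate 13. MiR-34c was detected on 3 of 4 and 0 of 3, with 12-month replicate 10 as the missing one. MiR-449a was detected on none, and neither were the 4 passenger strands or either strand of miR-449c. Detection is the software's call for the miRNA on an array. A miRNA was tested if all arrays of one age or the other detected it, which 272 miRNAs met. Of the 8 strands, miR-34a and miR-34b passed this filter and 6 did not.

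**Figure D1:**
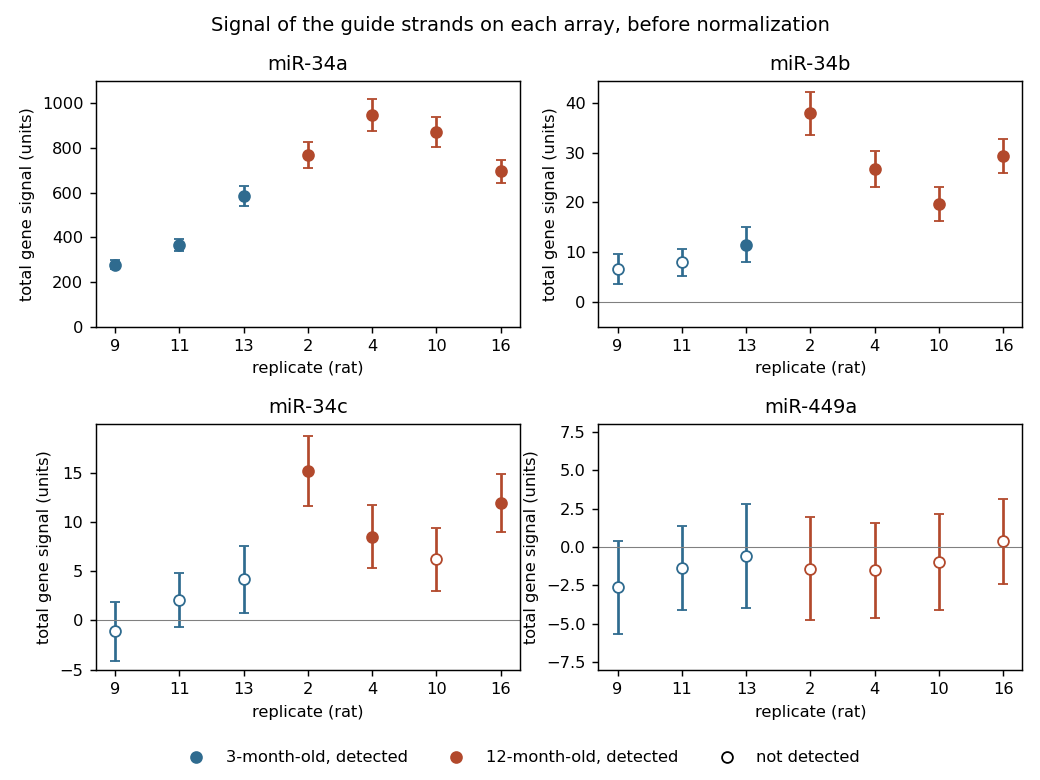
Total gene signal (linear units, before normalization) of the 4 guide strands on each array, with blue for 3-month-old and red for 12-month-old rats, filled points for detected and open points for not detected, and bars for 1 software error. MiR-34a, miR-34b and miR-34c lay higher on all 4 arrays of older rats than on all 3 of younger rats, and miR-449a lay around 0 on all 7.

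MiR-34a had signals of 768, 946, 872 and 695 units in 12-month replicates 2, 4, 10 and 16. It had signals of 278, 367 and 586 units in 3-month replicates 9, 11 and 13. The ages did not overlap, and replicate 13 was the highest of the younger rats. The mean was 820 ± 111 (SD, n = 4) against 410 ± 159 (SD, n = 3), a 2.0-fold higher signal in the older rats (two-sided exact permutation test over the 35 splits of the rats, p = 0.0286, the smallest p these numbers of rats allow). The software error was 7.57 to 7.65% of the signal at 12 months and 7.59 to 7.62% at 3 months, whereas the SD between rats was 13.5% and 38.7% of the mean. The spread between rats holds the differences in array brightness as well.

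The same lack of overlap was common on these arrays. Before normalization 131 of the 272 tested miRNAs, 48.2%, had all 4 signals of older rats above all 3 of younger rats, and the median log2 difference over the 272 was 0.79. MiR-34a, with a log2 difference of 1.06, stood 46th in order of size, and 16.5% of the tested miRNAs had a larger one.

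After quantile normalization, which gives every array the same distribution of signals, the log2 signal of miR-34a was 9.17, 9.63, 9.71 and 9.08 in 12-month replicates 2, 4, 10 and 16. It was 8.48, 8.65 and 9.93 in 3-month replicates 9, 11 and 13. Replicate 13 was now above all 4 older rats, the other 2 younger rats were below all of them, and the ages overlapped. The mean was 9.40 ± 0.32 (SD, n = 4) against 9.02 ± 0.79 (SD, n = 3). The log2 difference was 0.38 (SE 0.36, 95% confidence interval -0.45 to 1.20), with an adjusted p of 0.622 by limma with Benjamini-Hochberg adjustment over the 272 miRNAs. The exact permutation p was 0.4. The interval includes both 0 and 1 on the log2 scale, so a level equal to that of the younger rats and a level doubled against it are both within it.

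The place of 3-month replicate 13 was also read under other scalings. Relative to the array's 75th percentile its signal was 11, 12.8, 12.2 and 10.4 times as high in the older rats and 6.17, 6.62 and 15.7 times in the younger rats. Replicates 9 and 11 lay below every older rat by this measure, and replicate 13 lay above every one. As a share of the signal of miR-7a, miR-34a was 1.67, 2.45, 3.82 and 1.61% in the older rats and 1.49, 1.49 and 3.39% in the younger rats. Here 12-month replicates 2 and 16 lay close to 3-month replicates 9 and 11, and 12-month replicate 10 was the highest. Without replicate 13 the log2 difference was 0.80, more than 1.5 times that with it, and its adjusted limma p was 0.198. Without replicate 9 it was 0.11, and without replicate 11 it was 0.20.

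MiR-34b had signals of 38.0, 26.7, 19.7 and 29.3 units in 12-month replicates 2, 4, 10 and 16. It had signals of 6.57, 7.92 and 11.5 units in 3-month replicates 9, 11 and 13, and only the last was called detected. The ages did not overlap, with the gap between 12-month replicate 10 and 3-month replicate 13. The mean was 28.4 ± 7.54 (SD, n = 4) against 8.66 ± 2.55 (SD, n = 3) (two-sided exact permutation p = 0.0571). No fold is given, since 2 of the 3 younger rats were below detection. The software error was 11.5 to 17.6% of the signal at 12 months and 30.4 to 46.7% at 3 months. At 3 months the error of a single array was larger than the 29.4% SD between rats.

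Normalized, the log2 signal of miR-34b was 4.98, 4.31, 4.16 and 4.66 in the older rats and 3.16, 3.13 and 4.18 in the younger rats. Replicate 13 again stood above the other younger rats, and it narrowly passed 1 older rat, replicate 10. The mean was 4.53 ± 0.37 (SD, n = 4) against 3.49 ± 0.60 (SD, n = 3), and the log2 difference was 1.04 (SE 0.31, 95% confidence interval 0.32 to 1.76). Values below detection, those of 3-month replicates 9 and 11, enter this difference. Its size and interval are thus not a measured fold, here or under the other settings. The limma p was 0.0102 unadjusted and 0.0817 adjusted over the 272 miRNAs, and the exact permutation p was 0.0571. MiR-34b passed the detection filter through the older rats alone, where it was high. Without a detection filter its adjusted p was 0.325, and under a filter that asks for detection on all arrays it was not tested. Of all tested miRNAs, 1.47% had an adjusted p below 0.05, 1.10% as higher at 12 months, and 9.19% were higher at 12 months with an unadjusted p below 0.05. MiR-34a passed neither threshold, and miR-34b passed the unadjusted one. The normalized values of 7.72% of the tested miRNAs were higher at 12 months without overlap, and neither tested member was among them.

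The call for miR-34b changed with 3-month replicate 13. Without that rat the log2 difference was 1.38, with an adjusted limma p of 0.0463. The exact permutation p was 0.0667, the smallest that the remaining rats allow. Its array was the only one at 3 months that detected miR-34b. That fit thus set the older rats against values below detection, and its size is not a measured difference. With limma's array weights, which count a discordant array less, the log2 difference was 1.43 with an adjusted limma p of 0.00822. Under these weights 48 of the 272 tested miRNAs had an adjusted p below 0.05, against 4 as reported, so the call was not particular to miR-34b. Scaled to miR-7a or to the 75th percentile of the miRNAs detected on all arrays, the ages did not overlap for miR-34b. The log2 differences of 0.85 and 0.99 still missed the adjusted threshold. With miR-7a the gap was narrow, at 4.26 in 12-month replicate 16 against 4.23 in 3-month replicate 13 (log2). With quantile normalization or the 75th percentile of all miRNAs the ages overlapped. The share of all tested miRNAs without overlap was not counted for miR-7a or the percentiles.

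**Figure D2:**
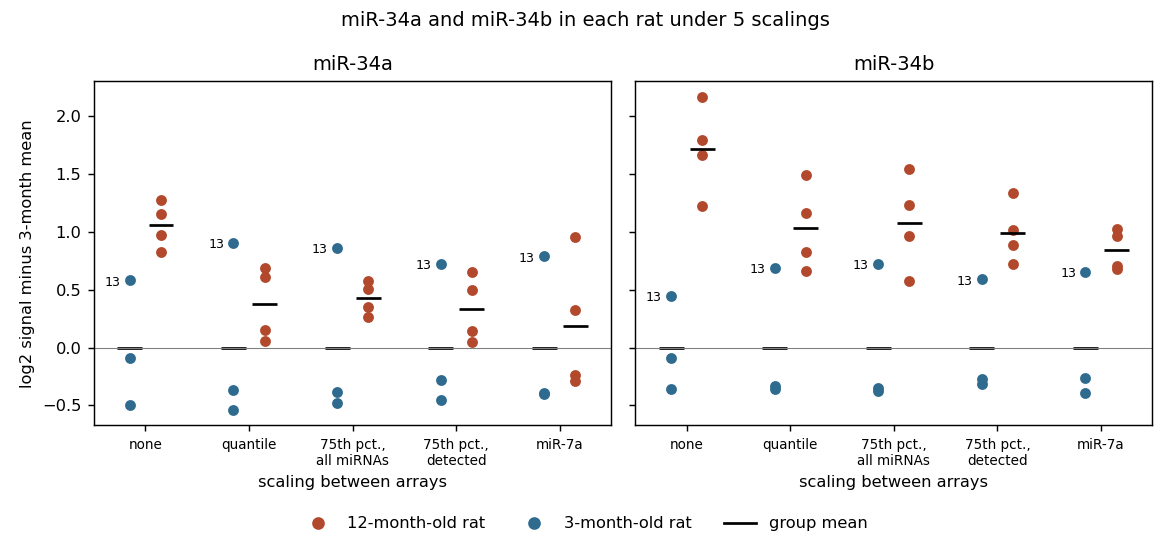
Log2 signal of miR-34a and miR-34b in each rat, relative to the mean of the 3-month-old rats, under 5 scalings between arrays, with red for 12-month-old rats, blue for 3-month-old rats, black lines for group means and the number 13 beside 3-month replicate 13. For miR-34a that rat lay above all older rats under the quantile and both percentile scalings and below all of them without scaling.

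MiR-34c was near the limit of the array. Its signals were 15.2, 8.47, 6.19 and 11.9 units in 12-month replicates 2, 4, 10 and 16, and they were -1.10, 2.09 and 4.18 units in 3-month replicates 9, 11 and 13. The ages did not overlap before normalization. The signal was 1.95 to 4.21 times its software error at 12 months and -0.36 to 1.23 times at 3 months. Normalized, the log2 signal was 3.69, 2.58, 2.48 and 3.11 against 0, 0.96 and 2.58, where 0 is the floor of 1 unit. Replicate 13 was level with replicate 4 and above replicate 10 of the older rats. The mean was 2.97 ± 0.56 (SD, n = 4) against 1.18 ± 1.31 (SD, n = 3), with an exact permutation p of 0.0857.

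No array of younger rats detected miR-34c, so its level there was not measured and no fold is given. A low detected signal elsewhere on an array sets no upper limit for it, since miR-34b was called not detected at 6.57 and 7.92 units in 3-month replicates 9 and 11, where the lowest signals of a detected miRNA were 1.58 and 2.10 units. MiR-34c was outside the 272 tested miRNAs. In a fit widened to the 307 miRNAs that any array detected, its log2 difference of 1.78 had an adjusted limma p of 0.116. MiR-34c entered that fit through the older rats alone, where it was high. The difference of 1.78 depends on the floor. It was 1.29 with the floor at each array's lowest detected signal, and 1.16 without 3-month replicate 9, the rat at the floor.

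MiR-449a gave no signal above 0.367 units on any array, and the lowest was -2.63. Its software error was 2.73 to 3.39 units, so every value lay within 1 error of 0. No difference between the ages was measurable, and the same held for miR-449c-5p, which shares the seed and was called detected on no array. Of the guide strands with this seed, miR-34a and miR-34b were thus detected on at least 1 array of each age, miR-34c on arrays of older rats alone, and the miR-449 strands on none.

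The passenger strand miR-34a* was called detected on no array, yet its signals did not overlap between the ages. They were 5.34, 6.38, 3.47 and 4.51 units in the older rats, 1.10 to 2.03 times the software error. They were -0.144, -0.772 and 1.15 units in the younger rats (two-sided exact permutation p = 0.0286, the smallest possible). Of the 370 miRNAs detected on no array, 5.14% were higher at 12 months without overlap. No fold is given, since both ages were below detection. The passenger strands of miR-34b, miR-34c and miR-449a had overlapping signals.

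Each miRNA was read by several probes, and before normalization the probes of the detected members moved the same way. Probes on 1 array share its brightness, and 48.2% of the tested miRNAs were higher at 12 months without overlap before normalization. The probe signals thus show how alike the probes read, and add nothing separate on age. MiR-34a had 2 probes with 10 spots each, and their mean signals were 1.97-fold and 2.01-fold higher in the older rats. The first gave 29.7 to 32.1% of the miRNA's signal on every array and the second 67.9 to 70.3%, so the share of each probe hardly moved between rats. The spots of a probe varied by 4.29 to 8.61% (SD over mean) within an array. MiR-34b also had 2 probes with 10 spots each, which were both higher in the older rats without overlap, with spots that varied by 11.2 to 73.8%. For miR-34c, 1 of 2 probes carried most of the signal, with a mean of 8.82 ± 2.90 units (SD, n = 4) at 12 months and 1.89 ± 1.34 units (SD, n = 3) at 3 months and no overlap, and the other lay near 0 at both ages with overlapping values.

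The members were also compared with each other on the same array, where the brightness of the array cancels. The log2 signal of miR-34b minus that of miR-34a was -4.34, -5.15, -5.47 and -4.57 in 12-month replicates 2, 4, 10 and 16, and -5.40, -5.53 and -5.67 in 3-month replicates 9, 11 and 13. Only 12-month replicate 10 fell within the range of the younger rats. The size of such a value depends on the probes, so only its change between arrays is read. It rose by 0.66 from 3 to 12 months (mean -4.88 ± 0.52, n = 4, against -5.54 ± 0.13, n = 3, exact permutation p = 0.114). Replicate 13, which stood apart for miR-34a and miR-34b after normalization, was close to the other younger rats in this difference. MiR-34b was below detection in 3-month replicates 9 and 11, and its software error at 3 months was 30.4 to 46.7% of the signal. The small spread of the younger rats is thus not a measured agreement.

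The difference of miR-34c and miR-34a was -5.66, -6.80, -7.14 and -5.87 in the older rats and -8.12, -7.46 and -7.13 in the younger rats, with 3-month replicate 9 at the floor for miR-34c. It was higher by 1.20 at 12 months (exact permutation p = 0.0857) and by 0.98 with the floor at the lowest detected signal (exact permutation p = 0.143), so its size is set in part by the floor and not by a measured level at 3 months. The ages overlapped narrowly, between 12-month replicate 10 and 3-month replicate 13. MiR-34c minus miR-34b was -1.49 ± 0.20 (SD, n = 4) at 12 months and -2.03 ± 0.63 (SD, n = 3) at 3 months, a difference of 0.55 (exact permutation p = 0.114) that rests on the floor in the same way. Over the 3 pairs the adjusted p was 0.114 for each. None of the 3 pairs thus passed the threshold. With 35 splits the smallest exact permutation p is 0.0286, so 1 pair alone could not pass after adjustment over the 3 pairs. The result does not show that the members differed equally between the ages.

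**Figure D3:**
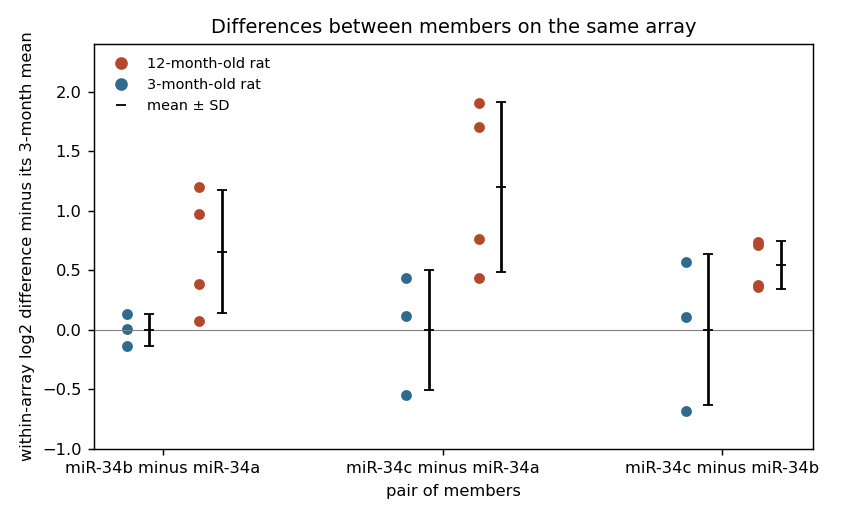
Log2 signal difference between 2 members on the same array, relative to its mean in the 3-month-old rats, with blue points for 3-month-old rats, red points for 12-month-old rats and black marks for mean ± SD. The means of the older rats lay 0.66, 1.20 and 0.55 above those of the younger rats, and the points of the ages overlapped for each pair.

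The arrays lay in 2 rows of 1 slide, and each row held both ages. In row 1, with 12-month replicates 2 and 4 and 3-month replicate 9, the normalized log2 difference was 0.92 for miR-34a, 1.49 for miR-34b and 3.14 for miR-34c. In row 2, with 12-month replicates 10 and 16 and 3-month replicates 11 and 13, it was 0.11, 0.75 and 1.02. All were higher at 12 months, and all were smaller in the row that held replicate 13. Row 1 rests on 1 younger rat, in which miR-34b was below detection and miR-34c stood at the floor. In row 2, miR-34b was below detection in 3-month replicate 11, and miR-34c in both younger rats. The sizes given for miR-34b and miR-34c are thus not measured differences. With the row as a block, the log2 difference was 0.43 for miR-34a (limma adjusted p = 0.598) and 1.05 for miR-34b (limma adjusted p = 0.135).

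**Figure D4:**
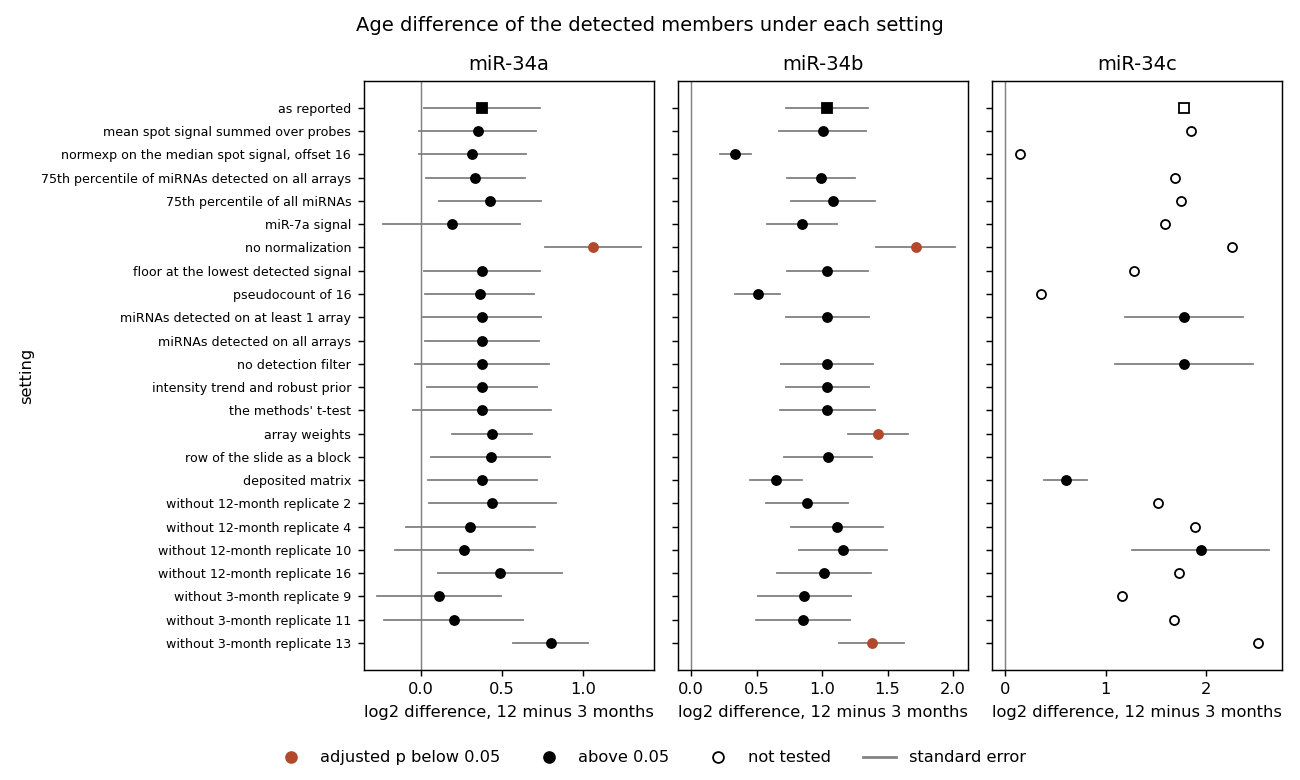
Log2 difference between 12-month-old and 3-month-old rats for miR-34a, miR-34b and miR-34c as reported (squares) and under each other setting (circles), with red for an adjusted p below 0.05, black above, open where the miRNA was not tested, and grey lines for standard errors. Every value lay above 0, and those of miR-34b with an adjusted p below 0.05 were the ones without normalization, with array weights and without 3-month replicate 13.

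The direction was the same for the 3 detected members in every setting tried. The log2 difference was above 0 in 23 of 23 alternatives for miR-34a, in 22 of 22 for miR-34b and in 18 of 18 for miR-34c. Some of these could not change the direction. Another detection filter, or another variance model without array weights, returns the same difference as reported. The size was not stable. It ran from 0.11 to 1.06 for miR-34a, from 0.34 to 1.72 for miR-34b and from 0.15 to 2.52 for miR-34c.

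Markers of other cell types moved between the arrays too. The summed signal of 5 mesenchymal miRNAs was 2629 to 3645 units at 12 months and 736 to 1711 units at 3 months, and that of 2 endothelial miRNAs was 2173 to 2794 against 1017 to 1754 units. For the 4 leukocyte miRNAs the highest sum at 3 months, 222 units, was below the lowest at 12 months, 310 units, and for the 2 erythroid miRNAs the ages overlapped, with at most 289 units at 12 months and 224 at 3 months. The 3 acinar miRNAs summed to 149 to 1451 against 887 to 1722 units, and the 3 endocrine miRNAs to 33979 to 64620 against 26727 to 35489 units. All 3 acinar and both erythroid miRNAs were detected on every array, as were 4 of 5 mesenchymal, 1 of 2 endothelial and 3 of 4 leukocyte miRNAs. On the normalized scale, as mean log2 signal of a list, the endocrine range was 12.69 to 13 at 12 months and 12.85 to 13.14 at 3 months, so its upper and lower ends were both higher in the younger rats. The mesenchymal (7.03 to 7.79 against 5.93 to 6.79), endothelial (7.86 to 8.18 against 7.57 to 7.84) and leukocyte (5.67 to 6.54 against 5.25 to 5.60) lists stayed higher at 12 months without overlap. Their members were not alike. The log2 age difference was 0.07 for miR-126, with overlap, and 0.58 for miR-126*, which 2 of 3 arrays of younger rats detected. It was -0.05 for miR-223, 0.33 for miR-150, 0.91 for miR-142-3p and 1.31 for miR-142-5p, the last detected on 0 of 3 arrays of younger rats. All 5 mesenchymal miRNAs were above 0, miR-143 and miR-145 with overlap. The acinar (4.92 to 8.39 against 8.22 to 9.51) and erythroid (5.11 to 6.18 against 4.79 to 6.76) ranges overlapped. In 5 of the 6 lists 3-month replicate 13 was at an end of the 7 arrays, as the highest for the endocrine and acinar lists and the lowest for the mesenchymal, endothelial and leukocyte lists. The part of cell makeup in the age differences of the miR-34 strands was not tested. In islet RNA fewer cells of a type and less of a miRNA per cell cannot be told apart.

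The miRNAs with the pattern most like miR-34a over the 7 arrays were miR-672 (Pearson r of normalized log2 signals 0.85), miR-101a (0.78), let-7c (0.73), miR-203 (0.68) and miR-30c-1* (0.66), against a median r of -0.08 over all tested miRNAs. Of these, miR-672, miR-101a and let-7c also had their highest value in 3-month replicate 13. For miR-34b they were let-7d (0.87), miR-7a-1* (0.82), miR-488 (0.80), miR-146b (0.80) and miR-30c-1* (0.80), against a median r of 0.12. MiR-34a and miR-34b had an r of 0.56 with each other, which put miR-34b in 17th place for miR-34a and miR-34a in 36th place for miR-34b. These values are a description over 7 arrays that share 1 normalization and an age split. MiR-30c-1* was in both lists, and its own log2 age difference was 0.99 (limma adjusted p = 0.0608). It was detected on all 4 arrays of older rats and on 0 of 3 of younger rats, where its mean of 0.50 was near the floor. Its level at 3 months was thus not measured, and the size of that difference depends on the floor. MiR-488 was also detected on all 4 arrays of older rats and 0 of 3 of younger rats, and it stood at the floor in all 3, so no fold is given. Its adjusted limma p of 1.81e-06 rests on 3-month values that the floor made equal. MiR-30c-1* and miR-488 passed the detection filter through the older rats alone, where they were high. Neither p is thus read as support for an age difference.

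The miR-34 genes belong to a wider group of miRNAs tied to p53, by transcription, processing or action on its pathway. Of a list of 16 such miRNAs outside the miR-34 family, 15 were on the array and 14 were tested. Their log2 age difference was above 0 for 8 and below 0 for 6, with a median of 0.07 beside 0.06 over all 272 tested miRNAs. None had an adjusted limma p below 0.05, where 1.47% of all tested miRNAs did, and 3 of the 14 had an unadjusted p below 0.05, near the 21.7% of all tested miRNAs. MiR-145, a miRNA of smooth muscle and fibroblasts that is also among the mesenchymal markers, was higher by 0.86 (adjusted p = 0.191). MiR-15b and miR-16, which act on cell cycle and survival mRNAs such as Bcl2, differed by -0.79 (adjusted p = 0.0758) and -0.38 (adjusted p = 0.199). Their direction was opposite to that of miR-34a and miR-34b, and none of these differences passed the adjusted threshold.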

How the data were processed

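Islet miRNA was measured on single-colour Agilent arrays. Per the labels, the authors ran Agilent Feature Extraction (version 10.7.3.1) and deposited its output, with background-subtracted intensity on a linear scale (total gene signal), its error and a detection call. The deposited matrix of log2 values from the authors was used as an alternative. It carries an offset that is not stated.

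Total gene signals of 677 rat miRNAs below 1 were set to 1, taken to log2 and quantile normalized (limma 3.58.1, R 4.3.3). For the 272 miRNAs that all arrays of one age or the other detected, lmFit and eBayes were run with p values adjusted after Benjamini-Hochberg (prior degrees of freedom 3.03), and the fit was checked on simulated data. Single values had an exact two-sided permutation test over 35 splits. The number of arrays limits the precision. Sequences came from RefSeq (GRCr8) and were matched by miRNA name.

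The miRNAs named are all strands of the family, the 5 most correlated with miR-34a and with miR-34b, members of the p53-linked list with an unadjusted p below 0.05, and miR-375 and miR-7a. The members and lists were chosen with earlier results of these data known. Alternatives cover signal summary, normalization, floor, detection filter, variance model, slide row, leaving out each rat and the deposited matrix.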

Additional observations from a re-analysis of the deposited data

How the results depend on the processing

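Of 136 alternative values for 8 results, 118 kept their direction and their side of the threshold, and 0 reversed. For a count and for the age difference of miR-34c, staying within a set range was asked instead of the threshold. Part of these totals was fixed in advance. A count of miRNAs cannot reverse, and a change of the detection filter alone returns the same difference for a member. For the pairs of members, an exact permutation test with 1 rat left out has too few splits for a p below 0.05. Those values could not change their side of the threshold. Without normalization the log2 difference became 1.06 for miR-34a (limma adjusted p = 0.0189) and 1.72 for miR-34b (limma adjusted p = 0.00232), while the median of all tested miRNAs moved to 0.79 from 0.06. That of miR-34b was 1.43 with array weights, 0.34 with normexp and 0.65 in the deposited matrix. That of miR-34c, as reported 1.78, was 0.15 with normexp, 0.36 with a pseudocount of 16 and 0.60 in the deposited matrix. With each rat left out in turn it ranged from 0.11 to 0.80 for miR-34a, from 0.85 to 1.38 for miR-34b and from 1.16 to 2.52 for miR-34c. For the unequal age differences those ranges were 0.48 to 0.85 for miR-34b and miR-34a, 0.93 to 1.46 for miR-34c and miR-34a, and 0.20 to 0.83 for miR-34c and miR-34b.

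Over all tested miRNAs, 4 had an adjusted p below 0.05 (3 higher at 12 months). This count was 20 (3 higher) scaled by the 75th percentile over miRNAs that all arrays detected, 9 (7 higher) with that of all miRNAs, 15 (3 higher) with miR-7a, 171 (169 higher) without normalization, 1 when only miRNAs detected on all arrays were tested, 48 (21 higher) with array weights, 8 in the deposited matrix, and 4 to 10 with 1 rat left out, the 10 without 12-month replicate 10. The unadjusted count was 59 (25 higher), and it was 37 (9 higher) with miR-7a, 193 (189 higher) without normalization, 89 (49 higher) with array weights and 41 to 88 with 1 rat left out. The cause was not tested. MiR-449a gave no value, since it was below detection everywhere. No paired analysis was possible because the ages share no replicate numbers.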
